A study of Mus musculus with 24 samples.

Results

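The genes described here are 7 feedback inhibitors of growth factor signalling in the mouse: the Sprouty genes Spry1, Spry2 and Spry4, the Spred genes Spred1, Spred2 and Spred3, and Errfi1. They were chosen by symbol, matched to the Ensembl identifiers of the count tables, and make up 7 of the 37621 features counted in each of 24 libraries. All 7 passed the filter on low counts in every comparison, and the least abundant of them, Spry1, had 152 to 490 reads per library. The library groups were wild type and Cdr1as knockout, both from C57BL/6 mice, in dissected cerebellum, cortex, hippocampus and olfactory bulb, with 3 libraries per region and genotype. The labels give no age, do not describe the knockout allele, and do not say whether the 3 libraries of a group came from separate mice. The p-values below therefore measure the spread between these libraries, which may be technical. RNA was selected by its poly(A) tail before sequencing, so circular RNA was not the target of the assay.

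When a growth factor activates its receptor tyrosine kinase, adaptor proteins and exchange factors load Ras, and the kinases Raf, MEK and ERK carry the signal to the nucleus. Sprouty proteins act below many such receptors and restrain the step to Ras and Raf, with a reach that depends on the receptor. Spred proteins recruit the Ras GTPase-activating protein neurofibromin to the membrane, and Errfi1, also called Mig-6, binds and inhibits the kinase domain of the EGF receptor family. Transcription of Sprouty genes and of Errfi1 is itself induced by growth factor signalling, which is why these genes are called feedback inhibitors. In brain, Sprouty and Spred proteins are known for limiting the response of neurons and glia to fibroblast growth factors and neurotrophins. Cdr1as, the gene removed in the knockout mice, gives rise to a circular RNA that is abundant in neurons and carries many binding sites for the microRNA miR-7.

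The libraries held 21068566 to 40472007 reads in genes. The feature named Cdr1asG in the tables was measured at 2.24 to 29.2 CPM (read counts scaled to a common library size, here and below with TMM factors) in the 12 wild-type libraries and at 0.115 to 1.94 CPM in the 12 knockout libraries, without overlap in any region. Summed marker genes of each region were highest in the libraries of that region: cerebellar markers reached 5918 to 6654 CPM in cerebellum and at most 771 CPM elsewhere, and olfactory bulb markers 1561 to 1779 CPM in bulb and at most 144 CPM elsewhere. Libraries numbered 2 stood apart from the others of their group, since the chi-square statistic of their counts, divided by its degrees of freedom, was 25.1 to 56.1 in the 16 pairs that contained one and 6.61 to 28.1 in the 8 other pairs. Choroid plexus markers exceeded 1000 CPM in 5 libraries, namely wild-type libraries 1 and 2 and knockout library 2 of cerebellum and wild-type libraries 1 and 3 of hippocampus. Leaving those libraries out left 1 wild-type library each in cerebellum and hippocampus. Calls of the 7 genes that were lost without those libraries are named beside the result.

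Among the 7 genes, those with higher transcript levels in knockout libraries include Errfi1 and Spred2, and promoter sequence was at hand for both. The Spred2 difference was the less secure, its call being lost in 21 of 24 comparisons that left out 1 library. Any link between promoter letters and these differences was not tested. RefSeq start-site windows (assembly GRCm38.p6, 250 bases before to 50 after the annotated start) were found for 6 of the 7 genes, all but Spry4. They were searched on both strands for the cyclic AMP response element TGACGTCA (CRE), its core TGACG, the AP-1 element TGANTCA, the serum response element known as the CArG box, the EGR element GCGTGGGCG and the ETS element CCGGAAG. An annotated start of Errfi1 (chr4:150854820-150855119, plus strand) held the complete CRE, which is present in 1.79% of all 32851 windows of this length. It begins 51 bases before the start and contains both core matches of that window. The other annotated start of Errfi1 (chr4:150853546-150853845, plus strand) held none of the elements searched. The Spred2 window (chr11:19924192-19924491, plus strand) held the core alone, on the minus strand and also at 51 bases before the start. The core was present in 20.8% of all windows, on either strand and at any position, windows with the complete CRE included. None of the windows of the 6 genes held the AP-1 element (7.81% of all windows), the CArG box (1.63%), the EGR element (0.612%) or the ETS element (8.86%). A match is a description of letters, not evidence of a bound site. The windows are shown 5′ to 3′ because these are the elements through which stimulus-responsive transcription is known to act, with the matched letters in capitals.
Errfi1 start-site window: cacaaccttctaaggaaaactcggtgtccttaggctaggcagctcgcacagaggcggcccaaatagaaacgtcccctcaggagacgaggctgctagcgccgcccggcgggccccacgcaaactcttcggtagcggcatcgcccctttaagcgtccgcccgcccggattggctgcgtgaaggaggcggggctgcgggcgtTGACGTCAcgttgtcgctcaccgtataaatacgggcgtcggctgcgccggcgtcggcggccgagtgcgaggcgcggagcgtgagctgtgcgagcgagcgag
Spred2 start-site window: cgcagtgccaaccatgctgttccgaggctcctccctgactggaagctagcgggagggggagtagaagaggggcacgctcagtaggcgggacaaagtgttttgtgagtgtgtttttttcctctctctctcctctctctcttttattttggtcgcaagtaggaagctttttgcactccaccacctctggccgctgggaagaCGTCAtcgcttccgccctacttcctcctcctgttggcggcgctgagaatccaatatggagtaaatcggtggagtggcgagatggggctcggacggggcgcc

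The sequence of miR-7b was compared with the 3′ untranslated regions because Cdr1as binds miR-7. Its mature form (RefSeq, GRCm38.p6) is shown with the seed, bases 2 to 8, in capitals.
mmu-miR-7b-5p: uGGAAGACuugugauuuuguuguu
The longest annotated 3′ untranslated region of each gene in the GENCODE annotation of GRCm38 was searched for GTCTTCC and TCTTCCA. Spry4 and Spred3 each held 1 match to TCTTCCA, and Spry1, Spry2, Spred1, Spred2 and Errfi1 held none to either. Of genes with a 3′ untranslated region of similar length, 49.3% held a match where Spry4 did and 40.8% where Spred3 did. Among the 5 genes without a match, the share for similar lengths ran from 17.7% for Spry2 to 57.3% for Spred1. The Spred3 match is shown with the matching letters in capitals.
Spred3 match: ggtccctcccctgtgaaccTCTTCCAt

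Wild-type levels were first set side by side per kilobase of exon. Spred1 was the most abundant of the 7 in every region, at 26.4 ± 5.44 (SD, n = 3) CPM per kb in cerebellum, 44.7 ± 6.12 in cortex, 28.3 ± 5.14 in hippocampus and 27.6 ± 5.88 in olfactory bulb. Spred2 and Spry2 followed, with region means of 20.8 to 26.0 and 15.7 to 25.1 CPM per kb, and their order changed between regions. Errfi1 had region means of 9.28 to 13.5 and Spred3 of 6.54 to 11.2 CPM per kb. Spry4 (3.17 to 4.03) and Spry1 (3.02 to 4.205) were the least abundant, and their libraries overlapped in every region but the olfactory bulb, where all Spry4 values were higher. The plot of wild-type levels shows these tiers, with the 2 low-abundance Sprouty genes apart from the rest.

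**Figure D1:**
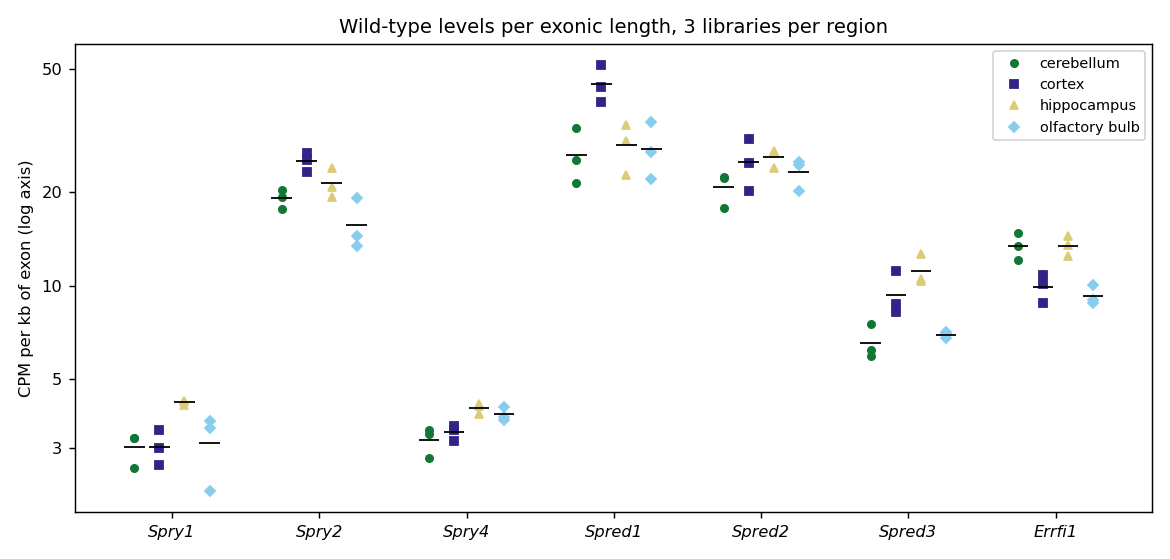
Wild-type transcript levels of the 7 genes in CPM per kb of exon (log axis), 1 symbol per library and a line at the mean of 3 libraries, for cerebellum, cortex, hippocampus and olfactory bulb. Spred1 in cortex has the highest mean (44.7), and all Spry1 and Spry4 libraries lie below those of the other 5 genes.

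The levels of 5 of the 7 genes differed between regions of wild-type brain (edgeR quasi-likelihood F test over 12 libraries, adjusted over 16729 genes), where 67.8% of all genes tested did. Spred1, a brake on Ras that works with neurofibromin, was highest in cortex, at 348, 266 and 296 CPM, and at 145.5 to 229 CPM in the other regions. It was higher in cortex than in cerebellum (log2 difference 0.76 ± 0.20 SE, edgeR adjusted p = 0.00726, against 53.7% of all genes passing) and lower in olfactory bulb than in cortex (−0.69 ± 0.20, 0.0157, against 44.3%). Cerebellum, hippocampus and olfactory bulb were not separated for Spred1, with log2 differences between them of at most 0.10 in size. Hippocampus was lower than cortex by −0.66 ± 0.20, which did not pass in edgeR (adjusted p = 0.0511) and did in DESeq2 (0.0144). The difference between regions was lost for Spred1 when the first wild-type cortex library was left out (edgeR adjusted p = 0.0648). That of bulb from cortex was lost in 2 of 12 comparisons that left out 1 library (edgeR adjusted p up to 0.0570).

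Spry2, which restrains signalling below fibroblast growth factor and other receptors, was lowest in olfactory bulb, at 30.1, 40.0 and 28.0 CPM, and highest in cortex, at 48.6, 52.9 and 55.7 CPM. The 3 bulb libraries lay below all cortex libraries (log2 difference −0.67 ± 0.13, edgeR adjusted p = 0.00139). Spry2 was also lower in bulb than in hippocampus (−0.44 ± 0.13, 0.0178, against 40.9% of all genes) and higher in cortex than in cerebellum (0.40 ± 0.13, 0.0217). With library totals in place of TMM factors those last differences had edgeR adjusted p-values of 0.121 and 0.0604. They were lost in 3 and 2 of the 12 comparisons that left out 1 library (edgeR adjusted p up to 0.0788 and 0.0832). Neither passed without the choroid-plexus-rich libraries, where 1 library each was left in hippocampus and cerebellum.

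Spred3, the Spred gene known for its expression in brain, had its highest level in hippocampus, at 64.2, 78.7 and 65.0 CPM, followed by cortex at 51.1, 69.0 and 54.1 CPM. Cerebellum (36.8, 46.8 and 38.5 CPM) and bulb (42.2, 44.2 and 43.2 CPM) were lower, and no library of theirs reached the lowest hippocampal or cortical value. The log2 difference between hippocampus and cerebellum was 0.77 ± 0.13 (edgeR adjusted p = 0.000371, against 49.0% of all genes), and the bulb lay below hippocampus by −0.68 ± 0.13 (0.00130). Hippocampus and cortex were not separated (0.26 ± 0.13, 0.248, against 13.5% of all genes), nor were bulb and cerebellum (0.10 ± 0.13, 0.586, against 46.4%). The Spred3 gene overlaps Ggn on the other strand in GRCm38, and the strand setting of the counting is not given in the sources used here, but Ggn was counted at only 0.605 to 1.80 CPM.

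Errfi1, the EGF receptor inhibitor, had a pair of levels. Cerebellum, at 47.9, 43.2 and 53.1 CPM, and hippocampus, at 51.6, 44.5 and 48.4 CPM, were not separated (log2 difference 0.01 ± 0.11, edgeR adjusted p = 0.957). Cortex, at 36.1, 31.5 and 38.8 CPM, and bulb, at 31.6, 32.1 and 36.1 CPM, were lower and were not separated either (−0.09 ± 0.11, 0.557). Every cortex and bulb library lay below every cerebellar and hippocampal library, and each of the 4 differences across these pairs passed. The log2 differences were −0.44 for cortex and −0.52 for bulb against cerebellum, and 0.45 for hippocampus against cortex and −0.53 for bulb against hippocampus. That of hippocampus against cortex was lost in 2 of 12 comparisons that left out 1 library (edgeR adjusted p up to 0.0865). Without the choroid-plexus-rich libraries 1 hippocampal library was left. Hippocampus was then no longer separated from cortex (0.36) or from bulb (−0.44).

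Spry4 and Spry1 were the low-abundance Sprouty genes. Spry4, an inhibitor of Ras activation below several growth factor receptors, ran from 15.1 ± 1.65 (SD, n = 3) CPM in cerebellum to 19.2 ± 0.780 CPM in hippocampus, and was higher in hippocampus (log2 difference 0.35 ± 0.10, edgeR adjusted p = 0.0128) and bulb (0.29 ± 0.10, 0.0349) than in cerebellum. Its difference over the 4 regions (edgeR adjusted p = 0.0253) did not pass without the libraries numbered 2 (0.180). Neither did its differences of hippocampus (edgeR adjusted p = 0.0875) and bulb (0.246) from cerebellum. All 3 were also lost without the choroid-plexus-rich libraries, where 1 library each was left in cerebellum and hippocampus. The difference over the 4 regions was lost as well when cerebellar library 2, hippocampal library 2 or hippocampal library 3 was left out (edgeR adjusted p up to 0.0609). Spry1 had its highest values in hippocampus, at 11.95, 12.4 and 12.3 CPM, above each of the 9 libraries of the other regions (6.34 to 10.6 CPM), although its difference over the 4 regions did not pass (edgeR adjusted p = 0.0722). In DESeq2 it did (0.0304). Spred2, a close relative of Spred1, had region means of 95.9 to 120 CPM, which were not separated (edgeR adjusted p = 0.225).

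Knockout and wild type were compared next, first as the average of the knockout effect over the 4 regions. Spry4, Errfi1 and Spred2 were higher in knockout libraries, and Spry1, Spry2, Spred1 and Spred3 were not separated. In edgeR's quasi-likelihood test 3 of the 7 genes rose and 0 fell, where 2.68% of 17266 genes passed (1.81% higher and 0.863% lower in knockout). With the replicate number within the region as a block, 1256 genes passed in edgeR, and 3 of the 7 did. Spry4 rose by a log2 change of 0.55 ± 0.07 (SE, edgeR adjusted p = 0.000124), Errfi1 by 0.43 ± 0.05 (7.81e-05) and Spred2 by 0.22 ± 0.06 (0.0488). The median change was 0.06 over the 7 genes and −0.0012 over all genes tested. Comparing libraries of equal number in a region, the knockout library was the higher in 12 of 12 pairs for Errfi1, 11 of 12 for Spry4 and 9 of 12 for Spred2. It was the higher in 8 pairs for Spred1, 6 for Spry2 and Spred3 and 5 for Spry1. The groups of Errfi1 overlapped in no region and those of Spry4 in hippocampus only, so their counts largely follow from that. Pairs were not counted for all genes. In bulk tissue, more RNA per cell and more cells of an expressing type cannot be told apart.

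**Figure D2:**
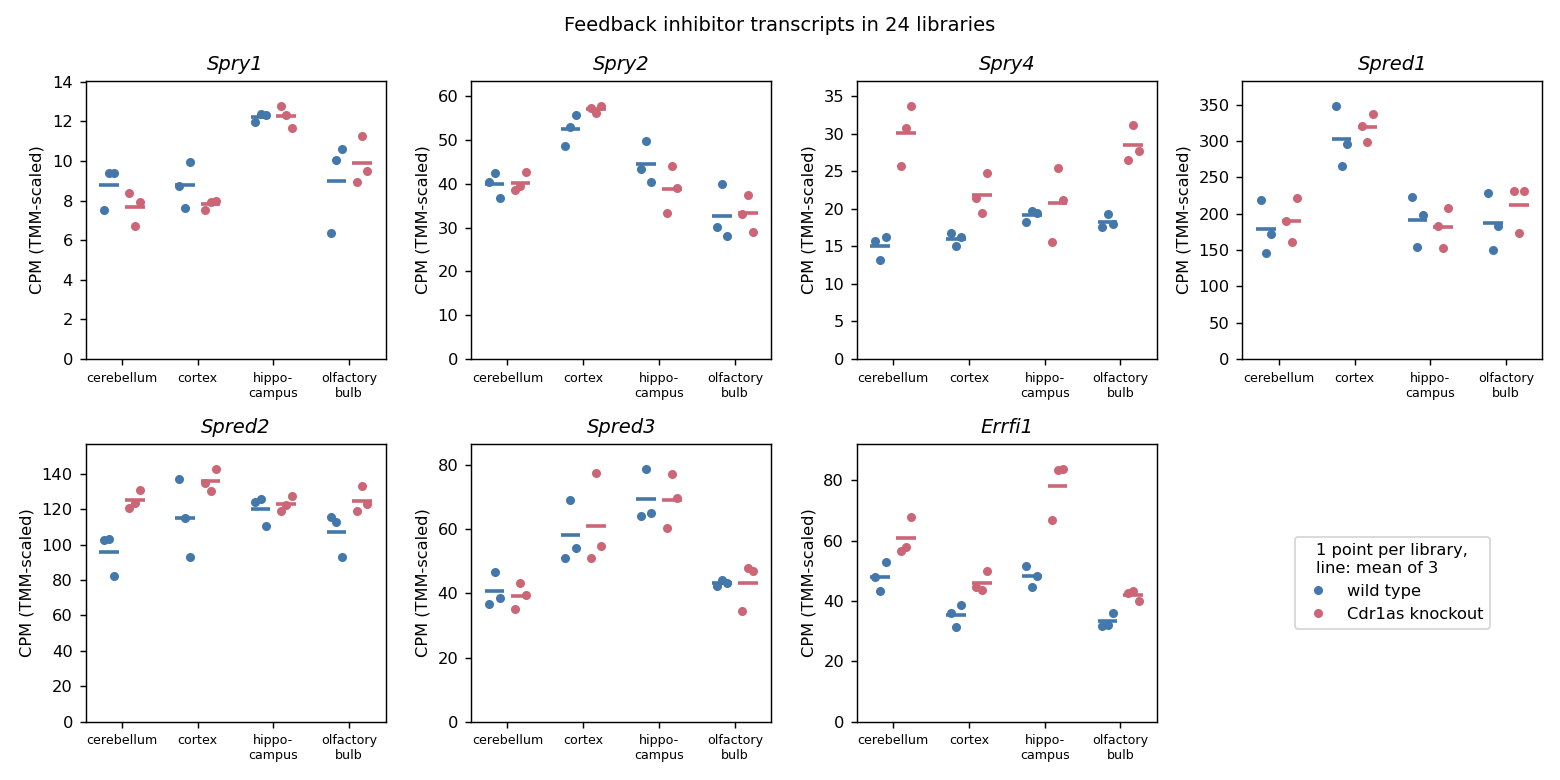
TMM-scaled CPM of the 7 genes in each of the 24 libraries, by region and genotype, with a line at the mean of each group of 3. Errfi1 points of the knockout lie above all wild-type points in each of the 4 regions, and Spry4 points do so in cerebellum, cortex and olfactory bulb.

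The averaged comparison treats the 24 libraries as independent. When log2 CPM was first averaged over the 4 regions for each genotype and number, leaving 3 values against 3, the changes were 0.54 for Spry4 and 0.43 for Errfi1 but passed no longer (limma adjusted p = 0.383 and 0.393). In that comparison 0 genes passed in limma, and 1112 had an unadjusted p under 0.05. Under the other 12 settings tried, and with any 1 library left out, Spry4 and Errfi1 stayed past the threshold, at log2 changes of 0.40 to 0.69 and 0.35 to 0.47. Without the libraries numbered 2 the values were 0.48 (edgeR adjusted p = 0.00796) and 0.37 (0.0104), and without the choroid-plexus-rich libraries 0.50 (0.0275) and 0.44 (0.0117). Spred2 was less secure: its call was lost in 21 of the 24 comparisons that left out 1 library (edgeR adjusted p up to 0.0938), and in 10 of 13 other settings, including that without the libraries numbered 2 (0.24, 0.196) and that without the choroid-plexus-rich libraries (0.26, 0.176).

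By region, Spry4 had its largest difference in cerebellum. Wild-type libraries there measured 15.8, 13.2 and 16.3 CPM and knockout libraries 25.7, 30.8 and 33.7 CPM, a log2 difference of 0.99 ± 0.14. In olfactory bulb Spry4 stood at 17.6, 19.3 and 17.96 CPM in wild type and at 26.6, 31.1 and 27.6 CPM in knockout (0.61 ± 0.08). In these regions the groups were far apart relative to their spread, with each knockout library well above every wild-type library. Cortex showed a smaller separation, from 16.7, 15.0 and 16.3 CPM to 21.5, 19.5 and 24.8 CPM (0.44 ± 0.12). In hippocampus the groups overlapped, with wild type at 18.3, 19.8 and 19.5 CPM and knockout at 15.6, 25.5 and 21.2 CPM (0.12 ± 0.17), and knockout library 1 lay below all 3 wild-type libraries. Without the libraries numbered 2 the hippocampal difference was −0.03.

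Errfi1 values of the genotypes did not overlap in any region. Its largest difference was in hippocampus, from 51.6, 44.5 and 48.4 CPM in wild type to 66.9, 83.4 and 83.7 CPM in knockout (log2 difference 0.69 ± 0.11). Knockout libraries measured 56.6, 58.0 and 67.9 CPM in cerebellum (0.33 ± 0.12), 44.6, 43.6 and 49.97 CPM in cortex (0.37 ± 0.11) and 42.6, 43.2 and 40.1 CPM in bulb (0.31 ± 0.08), against the wild-type values given above. The lowest knockout library exceeded the highest wild-type library by a margin that was smallest in cerebellum, 56.6 against 53.1 CPM. An antisense gene that overlaps Errfi1 in GRCm38, 1700045H11Rik, had 0 to 3 reads per library.

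Spred2 separated in cerebellum, from 102, 103 and 82.1 CPM to 120, 124 and 131 CPM (0.38 ± 0.10), and in bulb, from 115, 113 and 93.1 CPM to 119, 133 and 122.6 CPM (0.20 ± 0.09). In both regions wild-type library 3 was the lowest of the 6. Cortex overlapped, with wild type at 137, 115 and 93.1 CPM and knockout at 135, 130 and 143 CPM (0.23 ± 0.14), and so did hippocampus, at 124, 126 and 110 CPM against 119, 122 and 128 CPM (0.03 ± 0.08). Wild-type library 3 was the lowest of its region in all 4 regions, while the 12 knockout libraries measured 119 to 143 CPM.

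None of the 7 genes passed within a single region in edgeR's test of 3 against 3. In cerebellum 0% of genes passed, in cortex 0.0379%, in hippocampus 0% and in olfactory bulb 0%, so the test made next to no calls of any kind. An unadjusted p under 0.05 was reached by 3 of the 7 genes in cerebellum (Spry4, Spred2 and Errfi1; 5.48% of all genes, 862), 2 in cortex (Spry4 and Errfi1; 4.20%, 665), 1 in hippocampus (Errfi1; 5.16%, 804) and 2 in olfactory bulb (Spry4 and Errfi1; 5.33%, 859). DESeq2, which called 50, 102, 37 and 66 genes in these regions, called Spry4 in cerebellum (log2 0.99, DESeq2 adjusted p = 2.56e-06) and bulb (0.62, 3.83e-05) and Errfi1 in hippocampus (0.70, 0.000637). With the replicate number as a block, edgeR called Spry4 in bulb (0.61, adjusted p = 0.0158). Groups did not overlap, with knockout higher, for 3 of 7 genes in cerebellum (Spry4, Spred2 and Errfi1; 6.51% of all genes, 11.2% in either direction), 3 in cortex (Spry2, Spry4 and Errfi1; 5.17% and 9.28%), 1 in hippocampus (Errfi1; 5.21% and 10.2%) and 3 in olfactory bulb (Spry4, Spred2 and Errfi1; 6.12% and 9.97%). No gene of the 7 had knockout libraries all below wild type in any region.

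**Figure D3:**
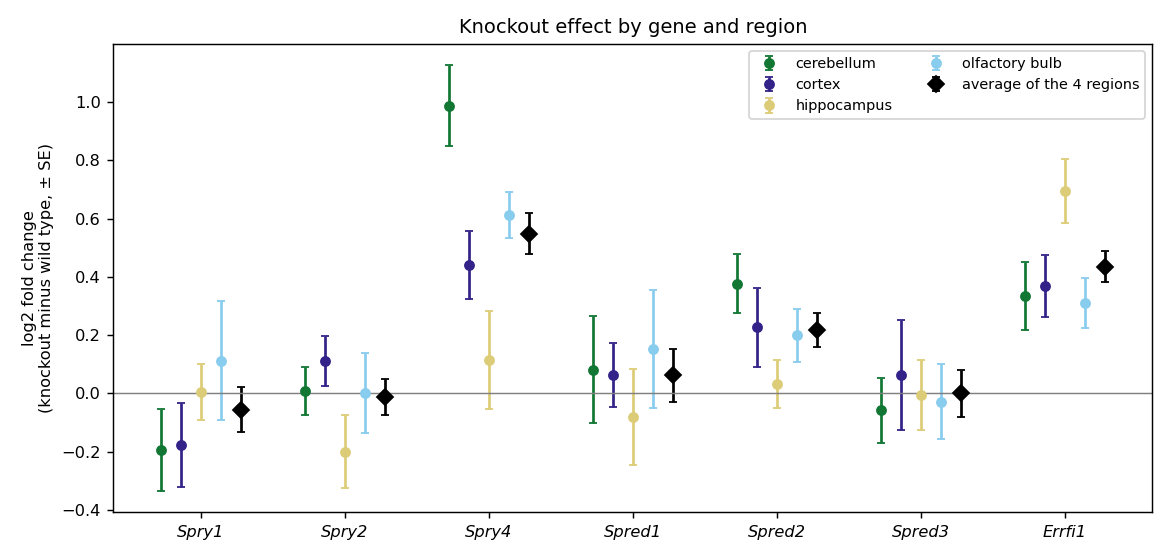
Log2 fold change of knockout over wild type for each of the 7 genes in each region (circles) and averaged over the 4 regions (diamonds), with bars of ±1 SE from edgeR. Spry4 ranges from 0.12 in hippocampus to 0.99 in cerebellum, whereas the largest Errfi1 value, 0.69, is in hippocampus.

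The knockout effects on Spry4 and Errfi1 thus had their extremes in different regions, but a difference between regions did not pass the test for any of the 7 genes (edgeR F test of the genotype-by-region terms, 0.0232% of 17266 genes passing). Spry4 had the smallest p of the 7 before adjustment, 0.00256, and an adjusted p of 0.885 in edgeR. For Errfi1 the edgeR p before adjustment was 0.0661. For Spry4, hippocampus was above cerebellum by 0.35 in wild type, a difference that did not pass in every setting, as given above. In knockout, hippocampus differed from cerebellum by −0.50. These are the regions with the smallest and the largest knockout effect on Spry4. The change of sign therefore restates the difference between regions that did not pass, and is no separate test of it.

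The remaining 4 genes showed no separation of genotypes in the averaged comparison. The changes were −0.06 ± 0.08 for Spry1, −0.01 ± 0.06 for Spry2, 0.06 ± 0.09 for Spred1 and 0.00 ± 0.08 for Spred3, with edgeR adjusted p-values of 0.848 or more. Of these 4 genes, Spry2 alone had a region without overlap between the groups, and 1 only, cortex, which measured 48.6, 52.9 and 55.7 CPM in wild type and 57.2, 56.1 and 57.7 CPM in knockout (0.11 ± 0.08, edgeR adjusted p = 0.9998). In hippocampus its difference had the opposite sign (−0.20 ± 0.12), with overlapping groups. Spry1 differences ran from −0.19 ± 0.14 in cerebellum to 0.11 ± 0.20 in olfactory bulb.

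Spred1 and Spred3 varied with the library number instead. The library numbered 2 had the lowest Spred1 value of its group in 8 of 8 groups and the highest Spred3 value in 8 of 8 groups. Such counts were not made for all genes, and libraries numbered 2 stood apart over all counts, as given above. In olfactory bulb, Spred1 measured 229, 149 and 183 CPM in wild type and 231, 173 and 231 CPM in knockout, so the spread between libraries of 1 genotype was wider than the difference between genotypes. In cortex, Spred3 measured 51.1, 69.0 and 54.1 CPM in wild type and 51.0, 77.4 and 54.6 CPM in knockout, a near repeat of the same pattern in both genotypes. For comparison, library 2 was lowest in 3 and highest in 4 of the 8 groups for Spry4, and lowest in 4 and highest in 1 for Errfi1. What the number stands for is not given in the labels, and its part in these values was not tested.

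Markers of the cell types in these tissues were read beside the averaged comparison. Their list medians ran from −1.496 for choroid plexus to 0.08 for excitatory neurons over 14 lists. Among the markers that passed were 1 gene lower in knockout in each of 4 lists, Clic6 of choroid plexus (−1.76), Ly6c1 of endothelium (−0.24), Tbx21 of olfactory bulb (−0.84) and Olig2 of oligodendrocyte precursors (−0.49). Over all genes tested, 0.863% passed as lower in knockout. Of 8 olfactory bulb markers 0 were higher in knockout in this average, with a median of −0.43. By region their median was −1.11 in cortex, 0.05 in cerebellum and 0.04 in hippocampus. In olfactory bulb itself it was −0.02, and 2 of 8 were higher in knockout. Of 6 markers of inhibitory neurons 0 were higher in the average, with a median of −0.06. Of 8 astrocyte markers 6 were higher in knockout, with a median of 0.02, and of 9 microglia markers 1 was higher, with a median of −0.13, and none of either list passed. The summed choroid plexus markers ran from 41.3 to 3368 CPM in wild-type and from 39.6 to 50.3 CPM in knockout hippocampus, and from 32.5 to 2443 CPM and 387 to 1327 CPM in cerebellum. None of the 10 choroid plexus markers was higher in knockout. Leaving out the choroid-plexus-rich libraries left 1 wild-type library in each of these regions, whose spread is then taken from the knockout libraries. The Errfi1 difference in hippocampus was then 0.82, and in cerebellum the Spry4 difference was 0.85 and the Errfi1 difference 0.21. The summed astrocyte markers overlapped between genotypes in every region, but some other sums did not. Of the 14 sums, 11 overlapped in cerebellum and 12 each in cortex, hippocampus and olfactory bulb. Among all single genes, 9.28% to 11.2% did not overlap in a region, in either direction. In hippocampus endothelial markers summed to 256.6 to 281.8 CPM in knockout and 295.5 to 308.9 CPM in wild type, and markers of inhibitory neurons to 719.1 to 788.4 and 824.4 to 843.9 CPM. In cerebellum the knockout libraries were lower for endothelium and oligodendrocyte precursors and higher for olfactory bulb markers (107.1 to 144.3 against 69.35 to 83.9 CPM). They were lower for bulb and cerebellar markers in cortex, and higher for markers of cortex and of excitatory neurons in bulb. The part of cell composition in the results was not tested further.

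The pathway in which the 7 genes act was then followed from ligand to nucleus in the averaged comparison. Of 26 growth factor ligands 0 rose and 1 fell, where 1.81% of all genes rose and 0.863% fell. The ligand that fell was Egf (−0.47 ± 0.09, edgeR adjusted p = 0.00592), the founding ligand of the receptor that Errfi1 inhibits. Gdnf (0.67) and Fgf12 (−0.12) had the next smallest p and did not pass. Of 19 receptor tyrosine kinases 0 rose and 1 fell, the endothelial receptor Kdr (−0.30, 0.0475, where 0.863% of all genes fell), while Fgfr3 (−0.19) and Pdgfrb (−0.22) did not pass. When each library was left out in turn, 0 to 1 receptors passed. Without the libraries numbered 2, or without the choroid-plexus-rich libraries, 0 ligands and 0 receptors passed in edgeR. Of 19 adaptors and exchange factors 1 rose, the adaptor Crkl (0.26, 0.00350, where 1.81% of all genes rose), and Rapgef1 (0.11) and Sos2 (0.12) did not pass. Of the 18 genes of the Ras, Raf, MEK and ERK core, 0 passed in edgeR and in DESeq2, 3 had an unadjusted p under 0.05, and 14 were higher in knockout, with a median of 0.03. Nras (0.11), Ksr1 (0.14) and Mras (0.10) had the smallest p of that list. The list medians were 0.01 for ligands, −0.06 for receptors and 0.04 for adaptors and exchange factors, against −0.0012 for all genes. With the replicate block, 1256 of 17266 genes passed in edgeR. Among them were 2 of the 26 ligands, 3 of the 19 receptors, 4 of the 19 adaptors or exchange factors and 1 of the 18 core genes.

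Transcripts known to follow ERK activity differed more. Of 23 measured, 9 rose and 0 fell, where 1.81% of all genes rose, with a median of 0.31: Fosl2 (1.15), Fosb (1.56), Fos (1.95), Trib1 (0.50), Srf (0.33), Junb (0.97), Egr1 (0.85), Spsb1 (0.31) and Ier2 (0.66). Fos and Fosb encode AP-1 transcription factors and Egr1 a zinc finger factor, and all are induced within minutes of neuronal activity as well as by growth factors. By region the differences were uneven. Egr1 differed by −0.08 in cerebellum, where Spry4 differed most, and by 1.16 in cortex. Fos was at 10.7, 16.6 and 26.8 CPM in wild-type and at 49.9, 115 and 101 CPM in knockout cerebellum. In hippocampus, knockout library 1 was the lowest of its group for Fos (20.8 CPM against 59.3 and 51.9), for Egr1 (127 CPM against 255 and 231), for Spry4 and for Errfi1.

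Other feedback genes of the pathway were represented by 21 measured genes, of which 5 rose and 0 fell (1.81% of all genes rose), all of them dual-specificity phosphatases that remove phosphate from MAP kinases. They were Dusp1 (0.91), Dusp5 (0.57), Dusp4 (0.41), Dusp6 (0.34) and Dusp8 (0.17), with edgeR adjusted p-values of 0.00236 to 0.0458. The list median was 0.05. These counts depended on the libraries used. Without the libraries numbered 2, 0 of the feedback genes and 2 of the ERK-responsive transcripts passed in edgeR, and without the choroid-plexus-rich libraries 1 and 5. With libraries of equal genotype and number treated as correlated, 2 and 5 passed in limma, and with averages over the 4 regions 0 and 0. Spry3 of the same family was not analysed here.

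**Figure D4:**
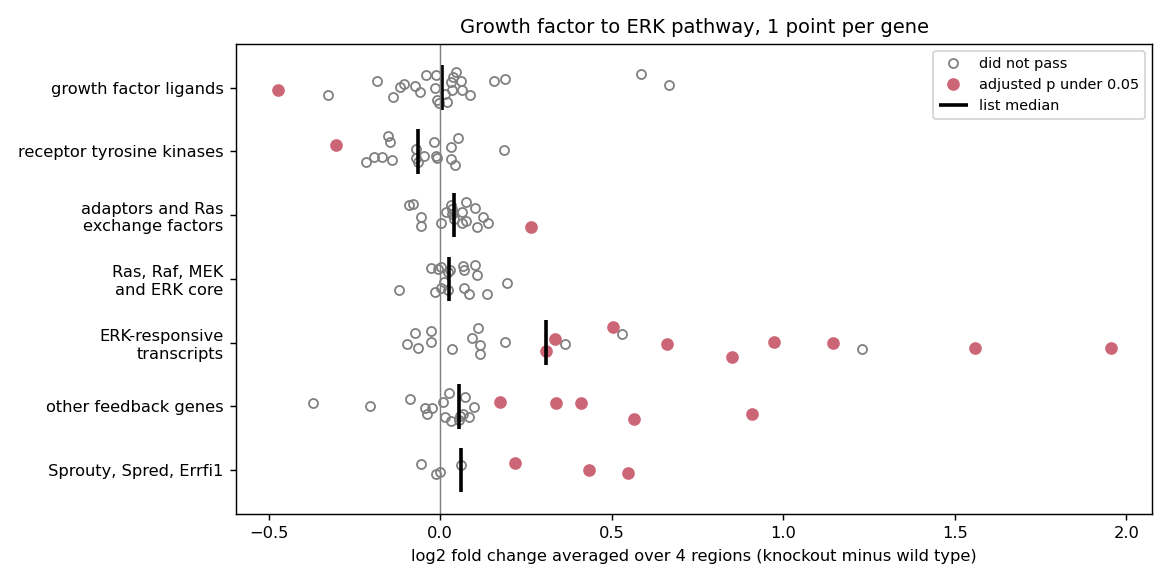
Log2 fold change averaged over the 4 regions for each measured gene of 6 pathway lists and of the 7 genes described here, 1 point per gene, filled where the edgeR adjusted p was under 0.05, with a vertical line at each list median. The ERK-responsive transcripts reach 1.95 and hold 9 filled points, and the 18 genes of the Ras, Raf, MEK and ERK core hold none.

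The 7 genes were also compared in how they varied over the 24 libraries after the mean of each region was subtracted. These correlations are over libraries that share regions and library numbers, include the genotype difference and are given as descriptions. Spry4 varied most like Nr4a2 (r = 0.91), Gpr3 (0.90) and Fosb (0.90). Nr4a2 is an activity-induced nuclear receptor and Gpr3 a receptor that raises cyclic AMP. Errfi1 varied most like Ccdc117 (0.89), Fos (0.87) and Siah2 (0.86). When the mean of each genotype in each region was subtracted instead, the values were 0.53 for Nr4a2 with Spry4 and 0.62 for Fos with Errfi1, so part of each correlation lay within groups.

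Spred2 varied most like Atxn2 (r = 0.91), which encodes the RNA-binding protein ataxin-2, and this value was nearly as high within groups (0.89). Ccdc6 (0.84) and Utp4 (0.83) followed. Among the 7 genes, Spry4 had r = 0.70 with Spred2 and 0.68 with Errfi1, and Errfi1 had r = 0.40 with Spred2. Spred1 and Spred3, the pair with opposite values in libraries numbered 2, had r = −0.57. Spred1 varied most like Ipo7 (0.96), Slc5a3 (0.95) and Ankrd50 (0.95), and Spred3 most like Lrrfip1 (0.91), Slc11a2 (0.91) and Rfx5 (0.90). The values for Spry1 and Spry2 were lower, led by Dmrtc1a (0.77), C9orf72 (0.72) and Cited2 (0.71) for Spry1 and by Vps26a (0.82), Tbx3 (0.81) and Ccdc25 (0.79) for Spry2.

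**Figure D5:**
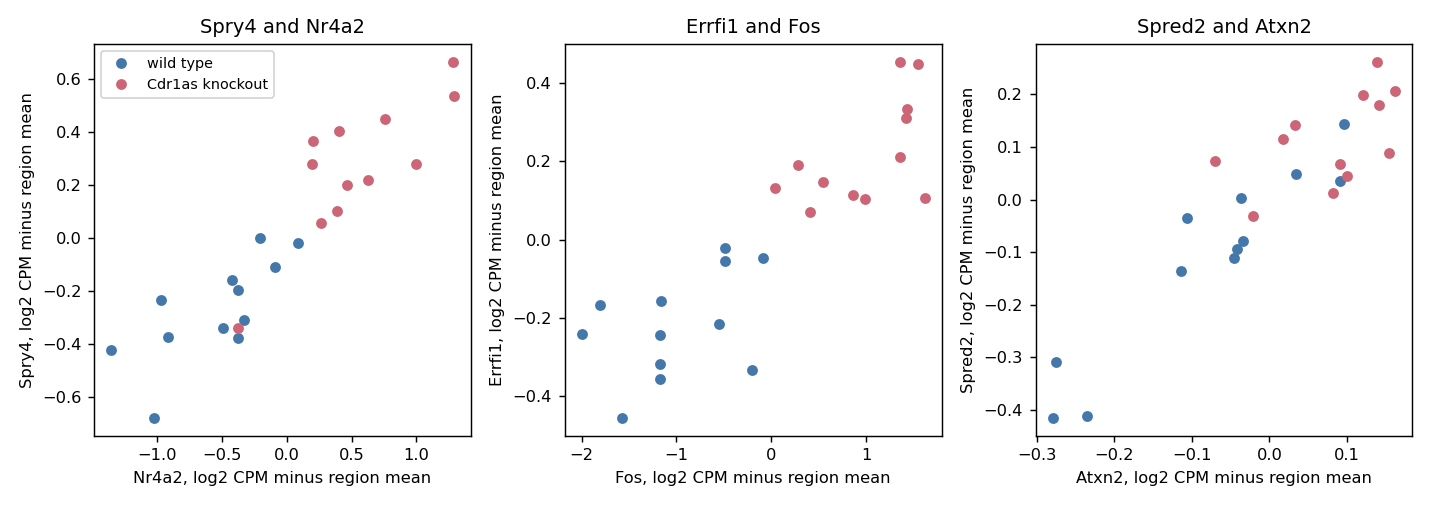
Library values of Spry4 against Nr4a2, Errfi1 against Fos and Spred2 against Atxn2, as log2 CPM minus the mean of the region, 1 point per library and 24 per panel. In the panel of Errfi1 all knockout points lie above all wild-type points, whereas 1 knockout library of hippocampus lies among the wild-type points of Spry4.

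Over the 12 wild-type libraries alone, with region differences kept, the most similar genes were others. Spry4 followed Ppp1r14c (r = 0.92), Bbs12 (0.91) and Dr1 (0.89), Errfi1 followed Gk (0.95), Med7 (0.93) and Susd6 (0.92), and Spred2 followed Prkcsh (0.90), Lrrc47 (0.90) and Vcp (0.90). The regional pattern of Spred3 was matched most closely, by Ptprs (0.98), Pik3cd (0.98) and Matk (0.98), and that of Spry2 by Wbp4 (0.96), Pithd1 (0.95) and Hars (0.95). Spred1 followed Glra3 (0.96), Dzank1 (0.95) and Lonrf2 (0.95), and genes similar to Spry1 included Mrfap1 (0.87) and Fam118a (0.86). Over all 24 libraries of both genotypes, with the group means removed, r ran from −0.28 to 0.39 for the 3 genes named for Spry4. For the 3 named for Spred1 it ran from 0.84 to 0.93.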

How the data were processed

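The deposited values were raw counts of reads per gene. The submitters' processing notes name bcl2fastq 2.17.1.14, STAR 2.5.1b, HTSeq 0.6.1p1 and assembly mm9, and the strand setting is not given in the sources used here. Summary lines naming no gene (8.22% to 16.8% no feature, 0.576% to 0.764% ambiguous, 10.3% to 13.5% not unique) were left out.

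After filterByExpr and TMM scaling, edgeR's quasi-likelihood F test was used (edgeR 4.0.16, R 4.3.3), with Benjamini-Hochberg adjustment over all genes tested and a threshold of 0.05. Region tests used 6 libraries, averaged and interaction tests 24, and the comparison of regions the 12 wild-type libraries. Exon lengths came from a GENCODE annotation of GRCm38, matched by gene identifier. Of 37621 features, 32897 matched a symbol. Likeness was Pearson's r of log2 CPM (prior count 2) over 14437 genes of at least 1 CPM. Predicted genes, Rik clones and features with only an identifier or clone name were not eligible to be named as most similar. Alternatives were library totals, DESeq2 1.42.0, voom in limma 3.58.1, no filter, a replicate block, and left-out libraries or regions. The 7 genes, the pathway and marker lists and the naming rule (the 3 smallest p of a pathway list, the 3 highest correlations) were chosen with earlier results of these data known. Genes named beyond that rule were chosen after their values were seen. Leaving out number 2 libraries outside the averaged comparison, leaving out choroid-plexus-rich libraries and averaging over regions were chosen after seeing the data. Some results that the rule would name are not reported here. Scripts were tested on simulated data.

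Libraries of equal number deviated together in cerebellum (r = 0.323 to 0.691), where libraries of unequal number reached at most 0.199. Equal numbers also gave positive values in hippocampus (0.322 to 0.586) and olfactory bulb (0.338 to 0.799). Unequal numbers reached 0.364 and 0.472 there, so a pairing of the genotypes by number was not clear. Libraries of equal number did not all deviate together in cortex (−0.088 to 0.682) or between wild-type regions (lowest of 18 values 0.0930).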

Additional observations from a re-analysis of the deposited data

How the results depend on the processing

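In the averaged comparison Spry4 and Errfi1 lost their calls in 1 of 13 other settings, averages over regions, and in 0 of 24 that left out 1 library, and Spred2 in 10 of 13 and 21 of 24. How many of all genes passed depended on the setting, and the cause was not tested. For the averaged comparison (462 genes) it was 790 with DESeq2, 1256 with the replicate block, 200 without the libraries numbered 2, 99 without the choroid-plexus-rich libraries, 108 with libraries of equal genotype and number treated as correlated, 233, 217, 192 and 170 without cerebellum, cortex, hippocampus or olfactory bulb, and 0 of all genes and 0 of the 7 for averages over regions in limma. Leaving out each library gave 342 to 553 genes and 2 to 3 of the 7. DESeq2 called 50, 102, 37 and 66 genes in cerebellum, cortex, hippocampus and bulb and 40 in the interaction (edgeR: 0, 6, 0, 0 and 4), with 1 of the 7 each in cerebellum, hippocampus and bulb. Without a filter on low counts the counts in the same order were 1, 28, 1 and 2, and with library totals 0 in cortex. The replicate block gave 3, 110, 15 and 57 genes (1 of the 7, Spry4, in bulb) and 11 in the interaction, and it changed no other call of the 7 between genotypes. Outside cerebellum a pairing by number was not clear. Between regions of wild type the block gave edgeR adjusted p-values of 0.0265 for Spry1 and 0.0124 for Spred2 over the 4 regions, which passed. Without the libraries numbered 2, 99 genes passed in hippocampus and 1 in bulb, and without the choroid-plexus-rich libraries 14 in cerebellum. Leaving out each library gave 0 to 0 genes in cerebellum, 0 to 4 in cortex, 0 to 42 in hippocampus (42 without wild-type library 2) and 0 to 21 in the interaction (21 without hippocampal wild-type library 2). For regions of wild type it gave 4 to 6 of the 7. In the 12 knockout libraries, Spry4 in hippocampus minus cerebellum was −0.50 and in olfactory bulb minus cerebellum −0.056, against 0.35 and 0.29 in wild type. The lowest count of any of the 7 in a library was 152 reads.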
